A study of Rattus norvegicus with 61 samples.

Results

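A set of 150 rat liver transcripts was followed that were raised after acetaminophen (APAP) and whose group mean stayed near the general shift after 4,4'-methylenedianiline (MDA), out of 31196 transcripts in the table. The livers came from male wild-type Sprague-Dawley rats, 6 weeks old when bought, that were fasted overnight and then gavaged once with vehicle (0.5% methylcellulose, Ctrl), APAP at 3 g/kg or MDA at 300 mg/kg, and were collected after 24 hours, with 5 samples a group. From untreated rats, 6 cell populations were measured beside them with 6 samples each, namely B cells, NK cells, CD4 T cells and CD8 T cells sorted from spleen, and neutrophils and monocytes sorted from blood. Whole spleen and whole blood cells after red cell lysis (WBC) were measured in 5 samples each. The livers had been perfused and a piece of the largest lobe was used, so each value is an average over all cells left in that piece. Fewer cells of a type and less RNA per cell cannot be told apart in such bulk samples.

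APAP is an analgesic that hepatocytes turn in part into a reactive metabolite. When that metabolite exhausts glutathione it binds to proteins, and hepatocytes around the central vein die. MDA is an aromatic amine whose injury falls first on the bile duct epithelium. Both injuries are followed by sterile inflammation, in which neutrophils and monocytes leave the blood and enter the liver while resident cells switch on stress and repair programmes.

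Levels are given as CPM, the estimated counts of a transcript per 1000000 counts of its sample. The members were chosen from the liver values themselves. Those averaging 1 CPM or more over the 15 livers were kept, which left 13482. For each, the log2 ratio of the treated mean to the vehicle mean was taken with 1 CPM added to both, and the median of all kept transcripts was subtracted. This gave one value for APAP, here called the APAP score (A in the plots), and one for MDA, the MDA score (M). The subtracted medians were 0.61 for APAP and 0.46 for MDA, so the scores are relative to a general upward shift of 1.53-fold and 1.37-fold in the CPM values. Transcripts with an MDA score between -0.5 and 0.5 and an APAP score of at least 0.5 numbered 1766, and the 150 with the highest APAP score were the members. They are numbered here from 1 to 150 by that score. The same vehicle livers enter both scores.

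The choice leaves no empty space at its borders. The 150th member had an APAP score of 1.41, as had the first transcript left out. The member with the lowest MDA score had -0.47, and the nearest transcript below the limit had an MDA score of -0.54 with an APAP score of 2.14. At the upper limit, member and nearest outsider both had an MDA score of 0.50. The members are therefore the upper end of a continuous range. Their liver differences, and the calls of a fit to the same livers, are given below as a description only.

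**Figure D1:**
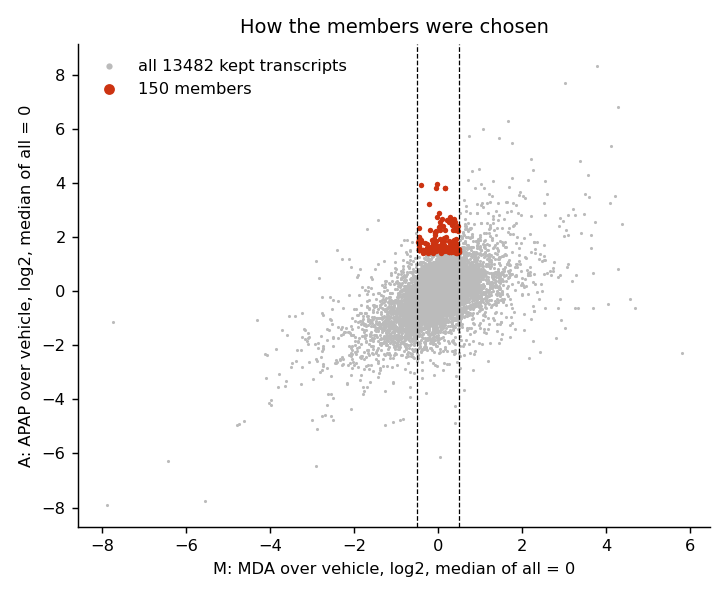
APAP score (vertical axis) against MDA score (horizontal axis), both in log2 units relative to the median of all kept transcripts, for 13482 transcripts (grey) and the 150 members (red). The members fill the band between -0.5 and 0.5 above an APAP score of 1.41 and border directly on transcripts that were left out.

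Transcripts are listed in the table by Ensembl identifier. None of the 31196 identifiers was paired with a gene symbol by the tables used here, so 4 members are given by identifier, the rest by number, and gene roles, marker genes and sequences are not reported. For the same reason the tissue labels were not checked against marker genes. What the members share was instead read from the immune samples, which the choice did not use. Transcripts of one gene, and genes with near-identical copies, compete for the same reads, so a member can owe part of its value to another isoform.

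The members held few counts in vehicle livers and more after APAP. Their median level was 2.37 CPM in vehicle livers, 18.5 CPM after APAP and 3.36 CPM after MDA. In vehicle livers 57 members (38%) averaged under 1 CPM, against 8.76% of all kept transcripts, a count that may also depend on transcript length. Of the members, 22 held no more than 3 counts in any vehicle liver, which corresponds to 0.256 CPM. The other 128 were higher after APAP by a median of 6.74-fold, from 4.15-fold to 58.1-fold, and with the 22 set to their lower bound the median was 8.43-fold. After MDA the same 128 stood at a median of 1.77-fold over vehicle.

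The rise was shared by most of the APAP livers. All 5 APAP livers lay above all 5 vehicle livers for 136 members (90.7%), where 40.6% of all kept transcripts did so. Of the other 14 members, 6 had 4 APAP livers above every vehicle liver, 2 had 3, 5 had 2 and 1 had a single one. All 5 APAP livers lay above all 5 MDA livers for 123 members (82%), with 15.4% among all kept transcripts, and above all 10 other livers for 122. All 5 MDA livers lay above all 5 vehicle livers for 38 members (25.3%), with 28.8% among all kept transcripts. These counts use the contrasts that chose the members and describe them only.

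In edgeR's quasi-likelihood fit over all transcripts, 142 members were higher after APAP, where 20.3% of all transcripts were. The members were chosen on these contrasts, so the liver calls describe the choice and test nothing. The same fit called 11 members higher after MDA, where 10.6% were, and none lower, where 11.3% were. Their log2 differences ran from 0.43 to 4.41, and most of them averaged under 1 CPM in vehicle livers, where the 1 CPM added in the MDA score makes a large ratio small. A low MDA score thus does not mean that a member did not move after MDA. Without TMM scaling (trimmed mean of M-values) 58 members were called after MDA, and with limma 50, in fits that also raised the share called higher among all transcripts to 44.1% and 45.6%.

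ENSRNOT00000012690, the member with the highest APAP score (3.97), was close to absent without APAP. It was at 0 in 4 vehicle livers and at 0.0846 CPM in the remaining one. The 5 APAP livers held 15.0, 13.1, 59.1, 10.2 and 19.2 CPM, and the MDA livers 0.0911, 0.772, 0.499, 0.197 and 0.240 CPM. Every APAP liver was above every other liver, and every MDA liver was above every vehicle liver at a far lower level. The mean after APAP was 23.3 ± 20.3 CPM (SD, n = 5), at least 91.0-fold above the vehicle limit of 3 counts per library. This transcript averaged under 1 CPM in each of the 8 immune groups.

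ENSRNOT00000010092, second by APAP score (3.92), was present in every liver. Vehicle livers held 1.93, 1.68, 4.04, 3.75 and 2.08 CPM, and MDA livers 4.16, 1.78, 3.56, 1.41 and 3.21 CPM. The APAP livers held 32.6, 35.7, 24.0, 251.5 and 77.3 CPM. Vehicle and MDA livers overlapped, and all APAP livers stood above both, with 59.7% of their summed level in liver 4. The means were 2.69 ± 1.11, 2.82 ± 1.18 and 84.2 ± 95.8 CPM (SD, n = 5 each), a ratio of 31.3 after APAP. Among the sorted cells it was highest in neutrophils, with 68.1, 92.8 and 140 CPM as lowest, median and highest of 6 samples.

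**Figure D2:**
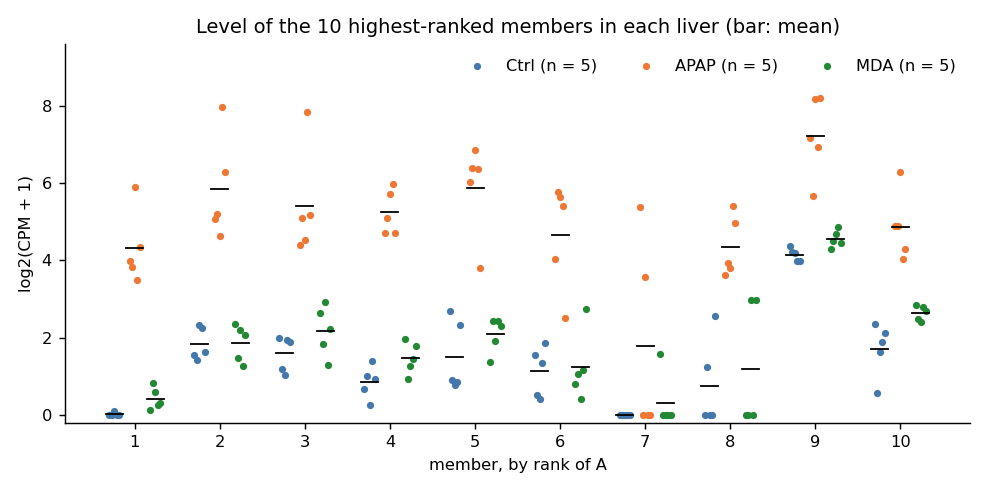
Level of the 10 members with the highest APAP score in each of the 15 livers, as log2(CPM + 1). Points are single livers, coloured by treatment, and bars are means of 5. For member 7 only 2 APAP livers stand clear of the vehicle livers.

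Member 35 took the largest share of the members' counts over the livers, between 30.0% and 73.5% of their sum in a liver, a share that may also depend on its length. Its vehicle livers held 1564, 489, 3028, 1308 and 2075 CPM, its APAP livers 15634, 7347, 11378, 12566 and 7725 CPM, and its MDA livers 1429, 1883, 3700, 905 and 3096 CPM. Every APAP liver was above every other liver, and vehicle and MDA livers overlapped. The group means were 1693, 10930 and 2203 CPM, a rise of 6.46-fold after APAP. In the immune samples it never exceeded 7.22 CPM.

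Member 81, with the next most counts after APAP, had group means of 214 CPM in vehicle livers, 1019 CPM after APAP and 382 CPM after MDA. Member 31 followed at 50.5, 367 and 96.3 CPM. Summed over all members, the level ran from 1632 to 4123 CPM in vehicle livers, from 13702 to 22516 CPM after APAP and from 2794 to 6098 CPM after MDA. The APAP range lay clear of both others, whereas vehicle and MDA ranges overlapped. Without the 5 members with the most counts after APAP the sums ran from 708 to 1062 CPM in vehicle livers, from 4254 to 6237 CPM after APAP and from 1256 to 1523 CPM after MDA. On that sum every MDA liver lay above every vehicle liver. These sums are CPM without TMM scaling and carry the general upward shift of 1.37-fold after MDA. TMM factors ran from 0.60 to 0.92 in vehicle and from 0.98 to 1.22 in MDA livers, so that scaling would narrow the gap. The separation is therefore not read as a rise beyond the general shift.

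How far the rise held in livers that took no part in the choice was read by leaving out the livers of 1 replicate number from all 3 groups, choosing 150 members anew from the other 12 livers, and reading the 3 livers left out. Each new set shared between 113 and 122 transcripts with the full one. In the APAP and vehicle livers left out, the median log2 difference of the new members was 2.28, 2.12, 2.50, 2.05 and 1.53 for replicates 1 to 5, where all kept transcripts had 0.85, 0.55, 0.87, 0.44 and 0.32. At least 0.5 above that median lay 86%, 82%, 89.3%, 90% and 86% of the members, with 23.0%, 25.0%, 27.5%, 23.1% and 19.2% of all kept transcripts. The rise after APAP was present in all 5 left-out comparisons, with replicate 5 giving the smallest difference.

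After MDA the left-out livers gave medians of 0.49, 0.61, 0.89, 0.50 and 0.30 for the members and 0.67, 0.51, 0.74, 0.27 and 0.16 for all kept transcripts. At least 0.5 above the median of all lay 16%, 21.3%, 26%, 29.3% and 24% of the members, with 22.1%, 18.1%, 20.7%, 22.1% and 16.02% of all kept transcripts. Between the replicates the members' share thus lay on both sides of the background, below it in replicate 1 and above it in the other 4. Within 0.5 of the median of all lay 51.3%, 57.3%, 54.7%, 57.3% and 60.7% of the members. The shares of all kept transcripts were 55.7%, 62.8%, 57.5%, 54.0% and 67.8%. Except in replicate 4, the new members were thus not more often near the general shift after MDA than transcripts at large.

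The spread of the members between APAP livers is part of how they were chosen, since a high APAP mean favours transcripts with 1 or 2 very high livers. As a description, the median SD of log2(CPM + 1) over the 5 APAP livers was 0.576 for members and 0.301 for all kept transcripts, whereas over vehicle livers it was 0.307 and 0.316, and over MDA livers 0.301 and 0.261. For 18 members more than 50% of the summed APAP level came from 1 liver, which was liver 3 for 10 of them and liver 4 for 5. Without 1 APAP liver, 2 members fell under an APAP score of 0.5, 1 of them without liver 3 and 1 without liver 4. Member 7, chosen for mention after its values were seen, held 41.1, 0, 10.8, 0 and 0 CPM in the APAP livers and was at 0 in every vehicle liver and every immune sample. It was at 2.01 CPM in 1 MDA liver and at 0 in the other 4, so its high score rests on 2 livers.

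Livers 2 and 3 were the highest of the 5 APAP livers for 46 and 64 members, livers 1, 4 and 5 for 12, 21 and 7. Among all kept transcripts the shares were 16.3%, 21.0%, 36.4%, 9.25% and 17.0% for livers 1 to 5, against 8%, 30.7%, 42.7%, 14% and 4.67% of the members. Liver 5 was seldom the highest, and its median APAP score over the members, taken from that liver alone, was 1.43, where the other 4 gave 1.62, 1.84, 1.86 and 1.71. Total counts of the APAP livers differed little, from 10524187 to 12059098.

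The next question was in which immune cells the members are found, since the study set the liver beside sorted immune cells. Each member was assigned to the immune group with the highest mean among the 6 sorted populations, spleen and WBC. CD8 T cells were highest for 33 members (22%), where they were highest for 10.0% of all kept transcripts. Neutrophils were highest for 25 members (16.7% against 11.9%) and NK cells, CD4 T cells and monocytes for 14 each (9.33% against 15.3%, 14.9% and 22.5%). Spleen was highest for 12 (8% against 6.42%), B cells for 9 (6% against 5.27%) and WBC for none (0% against 0.853%).

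The remaining 29 members (19.3%) averaged under 1 CPM in all 8 immune groups, as did 12.8% of all kept transcripts. Their median level was 0.0711 CPM in vehicle livers, 6.14 CPM after APAP and 0.718 CPM after MDA. Members 1 and 7 are among them. They were thus measured in the injured liver and hardly in any immune sample, at a depth where 3 counts in a vehicle liver correspond to 0.256 CPM. Member 35 was not among them, since its immune levels passed 1 CPM in at least 1 group, although its liver levels were far higher.

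For comparison, the 150 transcripts with the highest APAP score among those with an MDA score of at least 0.5, raised after both compounds, were placed in the same way. CD8 T cells were highest for 9 of them (6%), neutrophils for 43 (28.7%), monocytes for 28 (18.7%) and NK cells for 18 (12%). Under 1 CPM in all 8 immune groups were 21 (14%). The assignment to a highest group is a count without a test. At least 1 immune group was above the APAP liver for 71 members (47.3%), for 65.2% of all kept transcripts and for 56 (37.3%) of those raised after both.

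**Figure D3:**
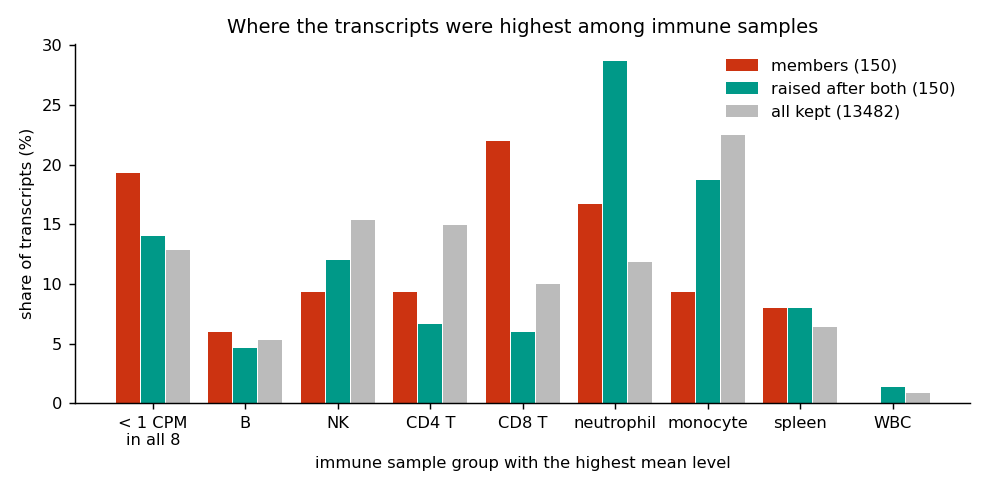
Share of transcripts (percent, vertical axis) by the immune group in which their mean CPM was highest (horizontal axis), for the 150 members, the 150 transcripts raised after both compounds and all 13482 kept transcripts. CD8 T cells take 22% of the members and 6% of those raised after both, neutrophils 16.7% and 28.7%.

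Spleen and WBC gave a comparison that the choice of members did not use. Spleen is rich in lymphocytes, and rat WBC hold neutrophils and monocytes as well. With edgeR's quasi-likelihood test on 13885 transcripts and Benjamini-Hochberg adjustment, 113 members passed the filter of a mean of 1 CPM over the 10 samples. Of these, 56 (49.6%) were higher in spleen, where 22.7% of all transcripts tested were higher, and 26 (23.0%) were lower, where 23.9% of all were lower. The other 31 were not called. The 13885 transcripts were not required to be kept in the livers, as the members were, so these shares come from unlike sets. Of the transcripts raised after both compounds 119 were tested, and 25 (21.0%) were higher and 46 (38.7%) lower in spleen. The median log2 difference of spleen from WBC was 0.27 for the members, -0.15 for those raised after both and 0.02 for all transcripts tested.

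Without TMM scaling 66 members were higher and 21 lower, while 35.2% of all transcripts were called higher and 14.7% lower, and the median of all moved from 0.02 to 0.18. The labels do not say that the replicates come from separate rats, so p-values measure the spread between these samples, which may be technical in part.

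The 56 members higher in spleen were mostly highest in lymphocytes among the sorted cells. CD8 T cells were the highest immune group for 26 of them, spleen for 10, NK cells for 9, CD4 T cells for 6, B cells for 4, monocytes for 1 and neutrophils for 0. Their median levels were 3.51 CPM in vehicle livers, 25.1 CPM after APAP and 5.41 CPM after MDA. The lymphocytes lay close together, at 29.5 CPM in CD8 T cells, 25.3 CPM in CD4 T cells, 24.4 CPM in NK cells and 22.4 CPM in B cells. Neutrophils stood at 7.93 CPM and monocytes at 10.8 CPM. None of them was among the 10 members with the highest APAP score and 16 were among the first 50. For 38 of them all 24 lymphocyte samples also lay above all 12 neutrophil and monocyte samples, where 10.0% of all kept transcripts did so. A higher level in spleen favours such transcripts, and the share among all transcripts higher in spleen was not taken. The 38 are therefore not read as particular to the members.

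The 26 members lower in spleen than in WBC were largely neutrophil transcripts by level. Neutrophils were the highest immune group for 19 of them, monocytes for 6 and NK cells for 1. They included 6 of the 10 members with the highest APAP score and 14 of the first 50. The 2 with the largest difference are described here with all their values.

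ENSRNOT00000006308, member 65, held 706, 865, 1727, 1049 and 973 CPM in WBC and 108, 126, 104, 84.7 and 78.9 CPM in spleen. All spleen samples lay below all WBC samples, with means of 100.3 ± 18.9 and 1064 ± 392 CPM (SD, n = 5 each). The log2 difference was -3.56 with an SE of 0.21 (edgeR quasi-likelihood test, adjusted p = 3.5e-06). Its 6 neutrophil samples ran from 3120 CPM through a median of 4009 to 5685 CPM, and monocytes averaged 618 ± 252 CPM (SD, n = 6). In the livers it was at 1.76, 2.01, 0.782, 1.84 and 2.41 CPM with vehicle, 7.72, 8.78, 19.6, 18.4 and 10.1 CPM after APAP and 2.58, 2.76, 3.76, 1.64 and 2.67 CPM after MDA.

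ENSRNOT00000076802, member 135, held 174, 262, 446, 283 and 216 CPM in WBC and 51.2, 83.9, 37.1, 32.1 and 29.0 CPM in spleen. The groups did not overlap, and the log2 difference was -2.73 with an SE of 0.31 (edgeR quasi-likelihood test, adjusted p = 6.4e-05). Neutrophils averaged 1172 ± 219 CPM (SD, n = 6) and monocytes 117 CPM. In the livers the levels were 0.254, 0.330, 0.137, 0.563 and 0.343 CPM with vehicle, 1.40, 4.25, 6.71, 8.60 and 1.99 CPM after APAP and 0.675, 0.101, 0.605, 0.422 and 0.579 CPM after MDA. All APAP livers were above all others, and vehicle and MDA livers overlapped.

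ENSRNOT00000010092, member 2, fell on the same side with a smaller difference. It was at 50.5, 43.1, 41.9, 30.2 and 21.3 CPM in WBC and at 22.7, 40.9, 18.9, 21.8 and 18.0 CPM in spleen. The groups overlapped, and the log2 difference was -0.80 with an SE of 0.28 (edgeR quasi-likelihood test, adjusted p = 0.0351).

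**Figure D4:**
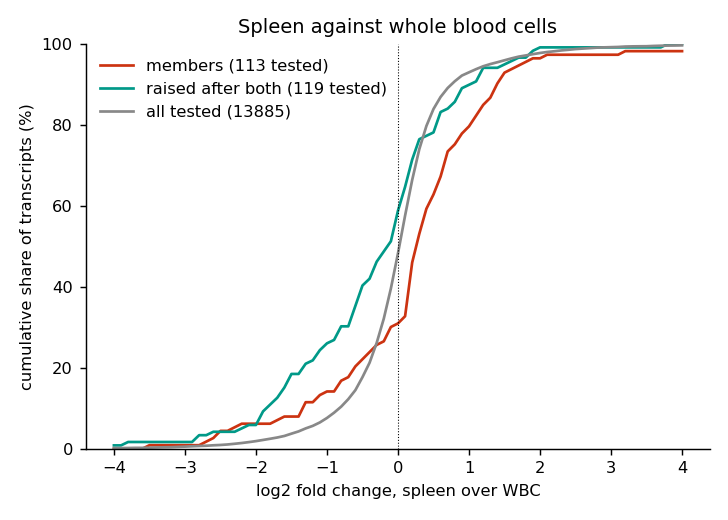
Cumulative share of transcripts (percent, vertical axis) by log2 difference of spleen from whole blood cells (horizontal axis, edgeR fit), for the 113 members tested, the 119 transcripts raised after both compounds and all 13885 transcripts tested. The median is 0.27 for the members and -0.15 for those raised after both.

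The sorted cells were then fitted together, 36 samples in 1 model, and a transcript was called for a cell type when it was higher there than in each of the other 5 (edgeR quasi-likelihood test, each adjusted p under 0.05). The filter passed 111 members and, as for spleen and WBC, did not ask that a transcript be kept in the livers. Of these, 27 (24.3%) were called for 1 cell type, where 26.7% of all 14172 transcripts tested were called. Neutrophils accounted for 24 (21.6%, with 15.4% of all), and B cells, NK cells and monocytes for 1 each (1.64%, 1.93% and 7.25% of all). CD4 T cells and CD8 T cells had none, with 0.310% and 0.134% of all transcripts, so a member can be highest in CD8 T cells without passing against the other lymphocytes. Of the transcripts raised after both compounds 122 were tested, and 41 (33.6%) were called for 1 type, 32 of them (26.2%) for neutrophils.

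The contrast of lymphocytes with myeloid cells was wider. All 24 lymphocyte samples lay above all 12 neutrophil and monocyte samples for 41 members (27.3%), where 10.0% of all kept transcripts did so and 12 (8%) of those raised after both. The reverse held for 19 members (12.7%), with 6.86% of all kept transcripts and 31 (20.7%) of those raised after both. All lymphocytes were sorted from spleen and all myeloid cells from blood, so cell type and source cannot be told apart in this count. The count also rests on CPM without TMM scaling, a choice that changed the neutrophil and monocyte calls given next.

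Between the myeloid types, 28 members (25.2%) were higher in neutrophils than in monocytes, where 23.3% of all were, and 16 (14.4%) were lower, where 20.1% were. This split depended on the scaling. Without TMM scaling 23 members (20.7%) were higher and 54 (48.6%) lower, with 10.2% and 45.4% of all transcripts. With limma 22 (19.8%) were higher and 54 (48.6%) lower, with 10.2% and 46.4% of all. Among the members, 5 and 6 alone took means of 41758 and 32701 CPM of the neutrophil libraries. The neutrophil library with the lowest total (3429971 counts) did not decide these counts, since without it 29 members were called for 1 type, 25 of them for neutrophils.

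The 24 members called for neutrophils differed widely in how their liver level stood to the level in blood neutrophils. The APAP liver mean ran from 0.1001% to 5733% of the neutrophil mean, with a median of 23.0%. For 4 of them it was under 1%, and for 6 it was above the neutrophil level. Members 5 and 6, with log2 differences of 3.85 and 3.83 over the next cell type, belonged to the first kind.

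Member 5 held 5.44, 0.887, 0.713, 0.799 and 3.99 CPM in vehicle livers, 63.7, 82.9, 114, 81.8 and 12.9 CPM after APAP and 1.58, 4.44, 2.78, 4.41 and 3.95 CPM after MDA. Member 6 held 1.94, 0.425, 0.342, 1.54 and 2.65 CPM, 15.5, 53.1, 48.9, 41.4 and 4.66 CPM, and 0.740, 1.07, 0.328, 1.23 and 5.66 CPM in the same order. For member 5 all APAP livers were above all other livers, with liver 5 the lowest of the group. For member 6 APAP liver 5 lay above every vehicle liver and below the highest MDA liver.

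Member 31 belonged to the second kind, at 367 CPM in APAP livers and 6.40 CPM in neutrophils, so a call for neutrophils among 6 sorted types does not place its liver signal in neutrophils. Together the 24 members summed to between 160 and 180 CPM in vehicle livers, 898 and 1811 CPM after APAP and 245 and 336 CPM after MDA. The 3 ranges did not overlap in CPM. Such sums carry the general upward shift after MDA, so the gap between vehicle and MDA livers is not read as a rise beyond it. For 7 of the 24 all 5 MDA livers lay above all 5 vehicle livers, close to the 28.8% of all kept transcripts that did so. The 24 members included 5 of the 10 with the highest APAP score.

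Since no named markers could be used, other transcripts of the sorted cells were followed in the livers as a measure beside these results. Outside the members, 109 transcripts were at least 4-fold higher in neutrophils than in any other sorted type, at 10 CPM or more there, and under 1 CPM in vehicle livers. Their summed level ran from 12.9 to 18.9 CPM in vehicle livers, from 46.8 to 124 CPM after APAP and from 38.0 to 57.7 CPM after MDA. Both treated ranges lay above the vehicle range in CPM without TMM scaling, and they overlapped each other. All 5 APAP livers were above all vehicle livers for 22 of the 109 and all 5 MDA livers for 12, and 11 were at 0 in every liver. Among all kept transcripts the shares were 40.6% and 28.8%. Those averaged 1 CPM or more over the livers, which was not asked of the 109, so the shares are not alike. The limit on vehicle livers bears on the comparison with them, so the sums are a description. Their part in the members' rise was not tested.

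By the same limits 20 monocyte transcripts summed to a median of 7.95 CPM (5.89 to 11.8) in vehicle livers, 13.7 CPM (10.1 to 18.5) after APAP and 14.9 CPM (9.47 to 15.5) after MDA. For 36 NK cell transcripts the medians were 6.15 CPM (5.34 to 10.8), 9.99 CPM (8.73 to 12.1) and 8.36 CPM (4.86 to 8.97). The ranges of vehicle and APAP livers overlapped in both sets. B cells and CD4 T cells had no such transcript and CD8 T cells had 1, so lymphocytes other than NK cells were not followed in this way.

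Sets of members differed in which of the 5 APAP livers was highest. For each liver the deviation from the mean of the 5 was taken on the log2 scale, and the median over a set was set against the median over all kept transcripts. The 56 members higher in spleen stood at -0.04, 0.38, 0.04, 0.08 and -0.44 in livers 1 to 5, and 32 of them were highest in liver 2. The 24 members called for neutrophils stood at -0.29, -0.24, 0.30, 0.61 and 0.04, and 10 and 9 of them were highest in livers 3 and 4. The 29 members under 1 CPM in all immune groups stood at 0.09, -0.23, 0.41, -0.17 and -0.52, with 17 highest in liver 3.

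Liver 2 was thus high for the members with spleen-side levels and low for the other sets, liver 4 was high for the neutrophil set, and liver 5 was lowest for the spleen-side and immune-absent sets. These are single livers, and the pattern has no replicate of its own.

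**Figure D5:**
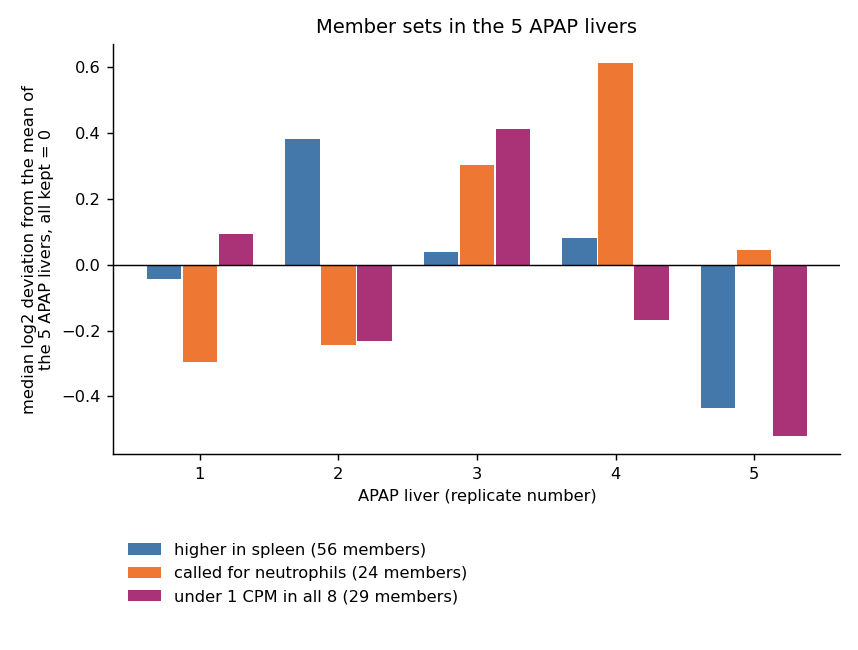
Median log2 deviation of each APAP liver from the mean of the 5 APAP livers (vertical axis), minus the same median over all kept transcripts, for 3 sets of members. The highest bar is 0.38 in liver 2 for the 56 members higher in spleen, 0.61 in liver 4 for the 24 members called for neutrophils and 0.41 in liver 3 for the 29 members under 1 CPM in all 8 immune groups.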

How the data were processed

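RNA libraries were sequenced by the authors as paired ends. Per the study's methods, reads were trimmed with PRINSEQ++, quantified with Salmon (version 1.6.0 in the submitters' processing notes, which also name R 4.1.3 and the builds Rnor_6.0 and mRatBN7.2) on Ensembl transcripts, and imported with tximport. The deposited table holds estimated counts per transcript for 61 samples. The methods call such values TPM, but the columns sum to between 3429971 and 14146402 and not to 1000000, so they were treated as estimated counts. Whether transcript length had been divided out is not given in the sources used here, so tests compare the same transcript between samples, and shares of counts taken by single members may also reflect transcript length.

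Counts were scaled to CPM for the choice of members and for all levels. Fits used counts rounded to whole numbers, a filter of 1 CPM on the mean over the samples fitted, TMM scaling and edgeR 4.0.16 quasi-likelihood tests (R 4.3.3) with Benjamini-Hochberg adjustment at 0.05 over all transcripts tested, in separate fits for livers, sorted cells, and spleen with WBC. The code of the fits was run on simulated data with the same spread for all transcripts and no general shift between groups. Such data differ from these livers, so the run does not show how the fits perform here. Alternatives were DESeq2 1.42.0, limma 3.58.1 on log2(CPM + 1), no TMM scaling, other filters, pseudocounts and limits, a replicate block and samples left out. The members, sets and tests were chosen with earlier results of these data known. Named by identifier were the 2 members with the highest APAP score and the 2 with the lowest spleen difference. By number were named members with the largest cell type folds, the highest liver levels or a place next to a limit, and member 7 outside this rule. Total counts ran from 10484912 to 14146402 in livers. Limits from 3 counts cover counting error only. Groups came from the sample labels. Gene lists and marker lists could not be used without symbols.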

Additional observations from a re-analysis of the deposited data

Results flagged for a closer look

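For the 4 members given by identifier and the summed level, 55 groups of 5 or 6 samples were examined. In 5 of them 1 sample lay far from the others relative to the group's range, and chance gives about 1 in 20. ENSRNOT00000012690 was at 59.1 CPM in APAP liver 3 with the other 4 APAP livers between 10.2 and 19.2 CPM. The same transcript was at 0.0846 CPM in vehicle liver 3 with the other vehicle livers at 0. That is 1.06 counts, and beside zeros any value would be flagged. It was at 1.99 CPM in CD4 T cell replicate 6 with the others between 0.0780 and 0.522 CPM. ENSRNOT00000010092 was at 251.5 CPM in APAP liver 4 with the others between 24.0 and 77.3 CPM, and at 40.9 CPM in spleen replicate 2 with the others between 18.0 and 22.7 CPM.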

How the results depend on the processing

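Of 201 values recomputed under other settings, 186 stayed within 1.5 times the reported count or within the spread and 15 moved further. Reversals of direction were not looked for. Without TMM scaling 58 members were called after MDA and 54 lower in neutrophils than in monocytes, and with limma 50 and 54. The balance of that last comparison turned over. The main fit called 28 members higher and 16 lower in neutrophils, whereas 23 were higher without TMM scaling and 22 with limma. With a filter of 10 CPM, which left 69 members in the liver fit, 68 were higher after APAP and 3 were called after MDA. The choice of members itself depended on its settings. When the rule was rerun, 90 of the 150 were chosen again with 0.1 CPM added and 67 with 5 CPM added, 98 with group medians in place of means and 88 with a filter of 5 CPM, while TMM library sizes gave 118. The median APAP score was 2.21 with 0.1 CPM added and 1.17 with 5 CPM added. The cause was not tested. Without TMM scaling the median log2 change of all transcripts after APAP moved from 0.05 to 0.75. Depth limits 22 members, which rest on no more than 3 counts in any vehicle liver.

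With samples left out, in each result no count left 1.5 times its reported value. The liver counts among them describe the choice of members only. The ranges were 49 to 57 members higher and 23 to 26 lower in spleen, 24 to 29 called for 1 cell type, 23 to 25 of them for neutrophils, 24 to 30 higher and 13 to 19 lower in neutrophils than in monocytes, 133 to 143 higher after APAP, 9 to 14 called after MDA and 113 to 122 members chosen again.

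With the replicate number as a block, 56 members were higher and 26 lower in spleen, 28 were called for 1 cell type, 27 were higher and 18 lower in neutrophils than in monocytes, 145 were higher after APAP and 11 were called after MDA. The labels give no pairing, and no set of samples had every same-numbered pair correlated above 0.1. The deviations of same-numbered livers correlated between -0.29 and 0.17, with 3 of 15 pairs over 0.1, those of sorted samples between -0.23 and 0.58, with 24 of 90, and those of spleen and WBC between -0.01 and 0.03, with 0 of 5. Best with their own number correlated 4 of 15 livers, 19 of 36 sorted samples and 0 of 10 samples of spleen and WBC. Some lymphocyte samples with equal numbers did deviate together, with 5 of 6 pairs of CD4 and CD8 T cells over 0.1, from -0.03 to 0.58, and 5 of 6 pairs of NK and CD8 T cells, from -0.03 to 0.48.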
